A study of Mus musculus with 58 samples.

Results

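The naive pluripotency transcription factors Pou5f1, Nanog, Sox2, Klf4, Zfp42, Esrrb, Klf2, Klf5, Tfcp2l1 and Tbx3 were followed as 10 of the 20177 genes counted in this series and chosen by name. They were read from 11 of 46420 counted 3′ UTR intervals, in 36 SLAM-seq libraries and in 21 of 22 Quant-seq libraries of E14 mouse embryonic stem (mES) cells. The study removed subunits of the enzymes that trimethylate histone H3 lysine 4 (H3K4me3) with degrons. SLAM-seq was made from DPY30–mAID cells in 3 replicates at 0, 2, 8 and 24 h of auxin, from RBBP5–FKBP cells in 3 replicates at 0, 2, 8 and 24 h of dTAG-13, and from DPY30–mAID Kdm5a/b-dKO cells, which also lack the H3K4 demethylases KDM5A and KDM5B, in 2 replicates at 0, 2, 4, 8, 24 and 48 h of auxin. All SLAM-seq cultures were labelled with 100 µM 4-thiouridine for 60 min, and newly made RNA carries T>C conversions in its reads. Quant-seq was made from DPY30–mAID cells given 1 µM retinoic acid (RA) with auxin or with DMSO, in 2 replicates at 8 h and at days 1, 2, 4 and 6, with a DMSO group at 0 h as the only start point. Every line was derived from E14 cells of 129/Ola origin, grown in serum with LIF, and the DPY30–mAID lines also carry OsTIR1, the plant receptor that auxin acts through. LIF was withdrawn when RA was given, so RA and the loss of LIF cannot be told apart. The Kdm5a/b-dKO cells were taken as 2 clones, and the labels do not tie the replicates to them. The study calls the SLAM-seq replicates biological, but the sources used here do not say whether replicates were separate cultures, for Quant-seq either, and p-values measure the spread between these libraries.

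In mES cells a small set of transcription factors holds the naive state. POU5F1 (OCT4) and SOX2 bind DNA as a pair, NANOG acts with them, and ESRRB, KLF2, KLF4, KLF5, TFCP2L1 and TBX3 bind many of the same enhancers and back each other up. LIF, through STAT3, and inhibition of GSK3 and MEK feed into this set, and most of its members are shut down when cells leave the naive state.

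Libraries held 2013350 to 2806821 reads in DPY30–mAID SLAM-seq, 1721185 to 2852331 in RBBP5–FKBP, 5931269 to 7792404 in Kdm5a/b-dKO and 1264241 to 2543632 in Quant-seq. Multimapped reads made up 21.8% to 25.9%, 23.0% to 24.4%, 32.0% to 34.3% and 22.4% to 33.9% of them. The dKO libraries covered fewer T positions per read, with a mean of 11.2 against 18.7 in both other lines, so labelling is given per covered T, and T>C reads of dKO cells cannot be set directly against those of the other lines. Between 15.3% and 16.1% of reads carried a T>C conversion in DPY30–mAID cells at 0 h, and the 3 libraries at 8 h stood apart from each other, with 13.0%, 9.82% and 5.51%, the last in replicate 3. In RBBP5–FKBP cells this share was 9.10% to 10.1% at 0 h and 4.85% to 5.33% at 24 h. In dKO cells it was 4.69% to 5.27% at 0 h, 2.98% to 3.13% at 24 h and 2.04% to 2.37% at 48 h. When T>C reads are scaled by total reads, weaker labelling and less transcription cannot be told apart. Replicates 1 and 2 of the DMSO day 6 group held identical counts and were used as 1 library. Kdm5a, a gene targeted for knockout, had 62.5 to 108 counts per 1000000 reads (CPM) in 12 DPY30–mAID libraries and 26.4 to 38.8 CPM in 12 dKO libraries, and Kdm5b had 403 to 978 and 112 to 153 CPM, so neither line overlapped the other. DPY30 and RBBP5 were removed as proteins, which read counts do not check. Summed over 7 ES cell marker genes, of which 4 are among the 10 factors, the start libraries held 8290.3 to 9322 CPM in DPY30–mAID, 6338 to 6417 in RBBP5–FKBP, 6536 to 6943 in dKO and 6893 to 7223 in Quant-seq. The sum over 12 primitive endoderm markers was 118 to 163, 189 to 223, 149.7 to 152 and 87.2 to 89.7 CPM in the same order.

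Coordinates are those of GRCm38 (mm10), and each counted interval lies in the 3′ UTR of its gene. Gene ends are those of GENCODE vM21. Pou5f1 (chr17:35506018-35510772, plus strand) encodes OCT4 and was counted over 221 bases at chr17:35510552-35510772. Of its reads, 99.2% also mapped elsewhere in the genome, so its values are uncertain and may include reads of near-identical copies. Sox2 (chr3:34650405-34652461, plus strand) encodes the HMG-box partner of OCT4, and Nanog (chr6:122707489-122714633, plus strand) a homeodomain protein; 0.0587% and 28.9% of their reads were multimapped. The Krüppel-like factors were Klf2 (chr8:72319033-72321656, plus strand), Klf4 (chr4:55527143-55532466, minus strand) and Klf5 (chr14:99298691-99315036, plus strand), with 0.111%, 40.0% and 0.124% of reads multimapped. Klf5 was counted over only 76 bases of its 3′ UTR at chr14:99313330-99313405. Esrrb (chr12:86361117-86521628, plus strand), an orphan nuclear receptor, was counted over both of its intervals, and 98.7% of its reads lay in the one at chr12:86519066-86521628. Tfcp2l1 (chr1:118627945-118685168, plus strand) is a target of STAT3 signalling and was counted over 7734 bases, the longest interval among the factors. Tbx3 (chr5:119670669-119684724, plus strand) encodes a T-box factor. Zfp42 (chr8:43295063-43306980, minus strand) encodes REX1, whose expression is a standard readout of the naive state, and 86.9% of its reads were multimapped, so its values too are uncertain.

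Promoter sequence was read for 8 of the 10 factors, over 250 bases before to 50 after each RefSeq start in 11 windows on GRCm38, because these factors are known to bind each other's promoters. Both strands were searched for the octamer motif TTTGCAT, for its composite with an adjoining Sox motif (TTTGCAT, any base, then ACAA), for the Krüppel-like box GGGTGTGG, for the nuclear receptor half-site AAGGTCA and for the STAT motif TTCCNGGAA. The composite stood in 0.0365% of all 32851 windows (12 windows), and among the factors in that of Nanog, at 75 and 151 bases before its 2 RefSeq starts (chr6, positions 122707489 and 122707565). The composite contains the octamer motif, so the Nanog match counts for both. The octamer motif stood in 4.63% of all windows and here also in those of Sox2, 99 bases before the RefSeq start on the minus strand, and Zfp42, 185 bases before its own, and the Krüppel-like box in 3.56% of all windows and here in that of Zfp42, 75 bases before the start on the strand opposite to the gene. These RefSeq starts, position 34649995 of chromosome 3 for Sox2 and 43307009 of chromosome 8 for Zfp42, are not the gene starts given above, from which the distances differ. Each stretch is given 5′ to 3′ on the strand of its gene, with the motif in capitals.
Nanog, composite motif, chr6:122707402-122707437: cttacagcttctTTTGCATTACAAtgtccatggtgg
Sox2, octamer motif, chr3:34649884-34649914: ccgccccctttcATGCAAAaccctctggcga
Zfp42, octamer motif, chr8:43307176-43307206: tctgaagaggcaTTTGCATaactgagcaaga
Zfp42, Krüppel-like box, chr8:43307065-43307096: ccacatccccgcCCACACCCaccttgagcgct
The nuclear receptor half-site (4.72% of all windows) and the STAT motif (1.15%) had no match in the factors' windows. A match is a description of the letters, and no binding was measured here.

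The share of covered T positions that were converted gives each RNA's label independently of its level and interval length, and at 0 h most of the factors were labelled above the median gene. In DPY30–mAID cells the median gene among those with at least 2000 covered T positions had 1.07% to 1.17% of T converted, and 8 of the 10 factors lay above it in all 3 libraries. Zfp42 had the highest rate, 2.65% ± 0.0488 (SD, n = 3), followed by Tbx3 at 2.25% ± 0.191 (SD, n = 3), Sox2 at 2.19% ± 0.177 (SD, n = 3) and Klf4 at 2.18% ± 0.304 (SD, n = 3). After them came Nanog at 2.11% ± 0.188 (SD, n = 3) and Klf2 at 2.10% ± 0.158 (SD, n = 3), and the values of neighbours in this order from Tbx3 to Klf2 differed by less than their spread. Klf5 had 1.97% ± 0.203 (SD, n = 3) and Esrrb 1.54% ± 0.128 (SD, n = 3). Tfcp2l1, at 0.759% ± 0.108 (SD, n = 3), and Pou5f1, at 0.543% ± 0.0736 (SD, n = 3), lay below the median gene in all 3 libraries. For Pou5f1 the multimapped share of 99.2% stands beside this value, and its part was not tested.

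The same 8 factors lay above the median gene (0.538% to 0.658%) in RBBP5–FKBP cells, where Klf2 had 2.02% ± 0.250 (SD, n = 3) and Zfp42 1.92% ± 0.194 (SD, n = 3), and Pou5f1 (0.195% ± 0.0393 (SD, n = 3)) and Tfcp2l1 (0.414% ± 0.0457 (SD, n = 3)) were again below it. The dKO cells had 7 factors above the median gene (0.473% to 0.544%) in both libraries, led by Zfp42 at 2.23% ± 0.117 (SD, n = 2) and Klf4 at 1.74% ± 0.180 (SD, n = 2). There Klf2 was below the median gene with 0.438% ± 0.0294 (SD, n = 2), and Esrrb, at 0.533% ± 0.163 (SD, n = 2), lay on both sides of it. Klf2 was above the median gene in 6 of 6 libraries of the other lines. The dKO libraries also differ from the others in T positions per read, and these cannot be told apart from the line. In the unlabelled Quant-seq libraries, which measure the background of conversions, the factors had means of 0.00867% (Esrrb) to 0.186% (Tfcp2l1) of covered T converted at 0 h, and the next highest after Tfcp2l1 was Zfp42 with 0.0482%. Tfcp2l1 had the smallest ratio of label to background of the 10 in DPY30–mAID cells. It was among the 7 factors above the median gene in dKO cells, at 0.528% to 0.637% against 0.169% to 0.203% without label, and the part of this background in its place was not tested.

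**Figure D1:**
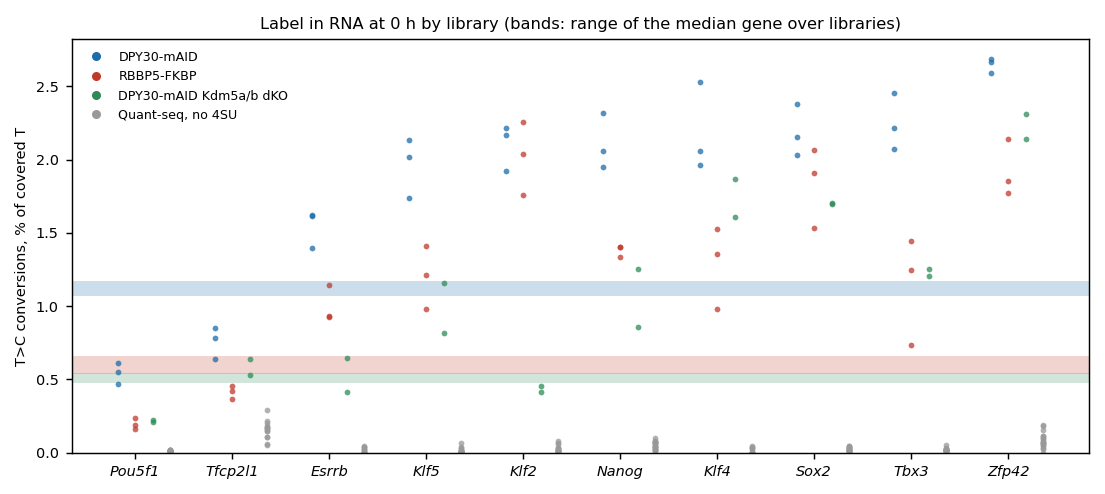
Converted T positions at 0 h of auxin or dTAG-13, in percent of covered T positions on the vertical axis, for each of the 10 factors and each library (points) in the 3 lines, with the range of the median gene over each line's 0 h libraries as a shaded band and the unlabelled Quant-seq libraries as grey points. Zfp42, with a mean of 2.65% in DPY30–mAID cells, lies highest there, while Pou5f1 lies below the median gene in all lines and Klf2 below it only in dKO cells.

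Reads with T>C conversions are given on the same scale, per 1000000 total reads (T>C CPM), and were tested with edgeR's quasi-likelihood test, with library sizes set by the total reads and Benjamini-Hochberg adjustment over all genes tested. A gene passed at an adjusted p under 0.05. After 2 h of auxin no factor passed in DPY30–mAID cells, none had an unadjusted p under 0.05, DESeq2 called none, and 0.0% of all 6317 genes passed. By 8 h, 7 of the 10 factors had fallen and none had risen, where 16.1% of all genes tested fell. Their median log2 fold change was -1.03, and that of all genes was -0.71. In bulk libraries fewer cells that express a gene and less RNA per cell cannot be told apart.

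Of the core factors, Nanog had 166, 156 and 193 T>C CPM at 0 h and 89.6, 58.1 and 22.7 at 8 h. Its groups did not overlap, and the log2 fold change was -1.59 ± 0.32 (SE; edgeR adjusted p = 5.96e-04). Pou5f1 fell from 94.2, 77.0 and 75.02 to 46.0, 45.0 and 25.7 T>C CPM (-1.07 ± 0.32), again with no overlap. Sox2 had 279.7, 279.8 and 313 T>C CPM before and 254, 167 and 115 after auxin; the groups did not overlap, but the change of -0.70 ± 0.27 did not pass (edgeR adjusted p = 0.0648). Among the Krüppel-like factors, Klf5 fell from 243, 278 and 284 to 109, 131 and 51.5 T>C CPM (-1.46 ± 0.29) and Klf4 from 175, 141 and 139.7 to 85.6, 67.5 and 46.3 (-1.19 ± 0.29). Klf2 stood apart from them, with 160.4, 149.9 and 187 T>C CPM at 0 h, 194, 163 and 103 at 8 h and overlapping groups (-0.11 ± 0.28). Esrrb (-0.99 ± 0.29) and Tbx3 (-0.94 ± 0.29) fell without overlap. Zfp42 fell by the test (-1.10 ± 0.34) although its 158, 244 and 252 T>C CPM at 0 h overlapped its 179, 91.3 and 35.3 at 8 h. Tfcp2l1, with -0.37 ± 0.31, did not pass and overlapped.

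Replicate 3 at 8 h, the library with 5.51% T>C reads, had the lowest value of the 3 for all 10 factors. Without it the same 7 factors were lower, where 11.8% of all genes were, and the medians were -0.78 for the factors and -0.42 for all genes. The number of factors called fell to 4 without 0 h replicate 1, 0 h replicate 3 or 8 h replicate 2. It fell to 2, Nanog and Klf5, when only these 2 groups were fitted, where 4.34% of all genes were lower. No share of all genes is given for the fits with 4 factors, so that count describes the factors alone. With library sizes set by the T>C reads instead, which follows the bulk of labelled RNA, the median of all genes moved up by 0.62, Nanog (-1.01) and Klf5 (-0.82) stayed lower, and Klf2 turned from -0.11 to 0.57 and was called higher. Under that scaling 4.54% of all genes were lower and 1.04% higher.

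**Figure D2:**
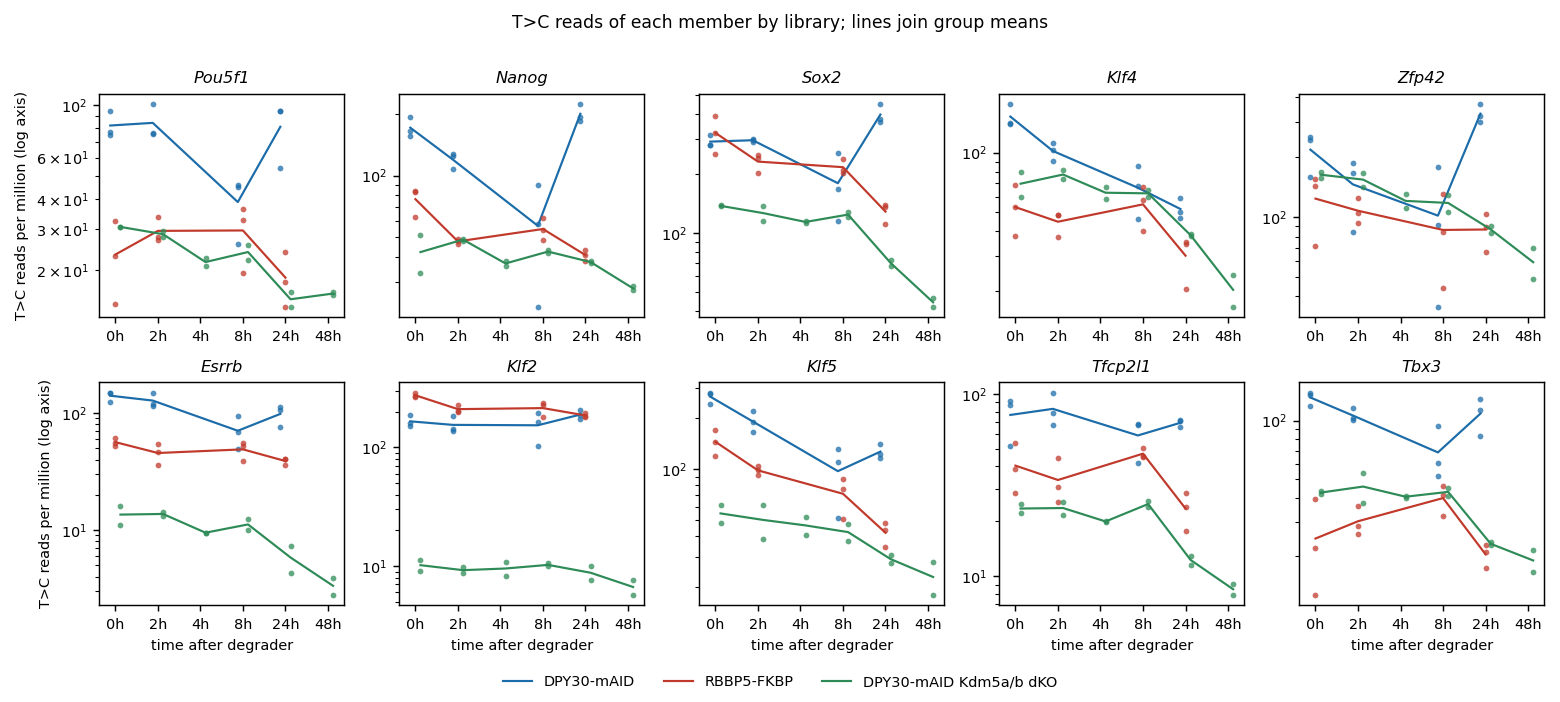
T>C CPM of the 10 factors (log axis) against hours of auxin or dTAG-13 (evenly spaced, not to scale), with a point for each library and a line through the group means of each line. In DPY30–mAID cells Nanog, Sox2, Zfp42 and Pou5f1 dip at 8 h and stand higher again at 24 h, while Klf4 and Klf5 stay low, and in dKO cells all 10 are lowest or near their lowest at 48 h.

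At 24 h of auxin Klf4 and Klf5 were the 2 factors that remained lower than at 0 h, where 2.79% of all genes were lower, and no factor was higher (edgeR; no factor was higher at an unadjusted p under 0.05 or by DESeq2). In a fit of these 2 groups alone 3 factors were lower and 2, Sox2 and Zfp42, higher, where 8.86% and 5.66% of all genes were. Klf4 had 58.8, 50.1 and 46.8 T>C CPM, below every library at 8 h but replicate 3 (-1.55 ± 0.30 against 0 h), and Klf5 had 141, 116 and 123 (-1.08 ± 0.29). Leaving out any one of the 6 libraries of these groups left 1 of the 2 called. Against 8 h, Nanog (186, 223 and 193 T>C CPM; 1.82 ± 0.32), Zfp42 (368, 323 and 302; 1.70 ± 0.34), Sox2 (381, 450.0 and 368; 1.16 ± 0.27) and Pou5f1 (54.0, 94.8 and 94.4; 1.06 ± 0.32) had risen, 4 of 10 factors where 17.1% of all genes rose, and the medians were 0.57 for the factors and 0.56 for all genes. For these 4 the values at 24 h lay above every value at 8 h. A fit of these 2 groups alone called 2 higher, Nanog and Zfp42, where 9.34% of all genes were, and T>C library sizes 3 higher, where 9.58% were, and 1, Klf4, lower, where 5.38% were. Sox2 and Zfp42 at 24 h also lay above all their values at 0 h, at 0.46 ± 0.27 and 0.60 ± 0.33, which did not pass. The other factors, Nanog (0.23 ± 0.30), Klf2 (0.19 ± 0.28), Pou5f1 (-0.02 ± 0.31), Tfcp2l1 (-0.14 ± 0.31), Tbx3 (-0.27 ± 0.29) and Esrrb (-0.51 ± 0.29), did not pass against 0 h. With T>C library sizes the median of all genes moved by 0.12, Klf4 and Klf5 stayed lower and Sox2 and Zfp42 passed as higher, at 0.57 and 0.71, where 6.71% of all genes were lower and 6.78% higher. Markers of other cell types also differed between these libraries. In all reads the primitive endoderm markers summed to 118 to 163 CPM at 0 h, 114 to 149 at 8 h and 75.4 to 85.6 at 24 h, the 8 neural markers to 108 to 129, 82.9 to 111 and 53.6 to 72.7, and the 6 trophoblast markers to 21.0 to 28.6, 10.1 to 22.3 and 4.40 to 8.93. Sox17 (endoderm), Dcx (neural) and Elf5 (trophoblast) were at 0 in all 3 groups. The part of these lists in the factors' changes was not tested.

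Loss of RBBP5, a core subunit shared by the methyltransferase complexes, lowered more of the factors at 24 h than at 8 h. At 2 h of dTAG-13 none of the 10 passed by edgeR, where 0.252% of all 4761 genes did. At an unadjusted p under 0.05, 4 factors were lower, as were 515 of all genes, and DESeq2 called Nanog, Sox2 and Klf2 lower. At 8 h, Sox2 and Klf5 were lower, 2 of 10 where 7.71% of all genes were, and the others, which did not pass, lay between -0.52 (Zfp42) and 0.68 (Tbx3). Without 0 h replicate 2 or 8 h replicate 2 this was 1 of 10, and without the first of these 1 factor, none otherwise, was higher. With T>C library sizes, which moved the median of all genes by 0.34, the count was 0. At 24 h, 6 of 10 were lower, where 25.9% of all genes were, with a median of -0.67 against -0.91 for all genes. Klf5 fell most, from 171, 119 and 144 to 48.0, 43.4 and 34.5 T>C CPM, with no overlap (-1.78 ± 0.23, edgeR adjusted p = 6.53e-09). Sox2 had 391, 323 and 253 T>C CPM at 0 h, 238, 208 and 200.5 at 8 h and 138, 135 and 111 at 24 h, a log2 fold change of -1.33 ± 0.17 over 24 h, with no overlap between any of the 3 groups. Between 8 h and 24 h it was the 1 factor called lower by edgeR (-0.75 ± 0.17), where 1.2% of all genes were, and this call was lost without 8 h replicate 1 or 24 h replicate 3. Without 8 h replicate 2, 2 factors were called there. DESeq2 called Sox2, Klf4, Klf5 and Tfcp2l1, where 3.13% of all genes were. In edgeR 5 factors were lower at an unadjusted p under 0.05, as were 667 of all 4761 genes. With T>C library sizes or a fit of these 2 groups alone none passed, where 0.0% and 0.112% of all genes did.

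Nanog fell from 63.0, 83.8 and 83.5 to 41.1, 38.3 and 43.2 T>C CPM (-0.91 ± 0.24). Klf4 fell from 53.1, 68.2 and 37.8 to 34.5, 20.5 and 35.5 (-0.81 ± 0.28). Tfcp2l1 fell by the test from 54.0, 38.7 and 28.6 to 24.0, 17.7 and 28.8 (-0.78 ± 0.30), although one value at 24 h overlapped those at 0 h, and with 0.183% to 0.241% of covered T converted at 24 h it was near its unlabelled 0.169% to 0.203%. Klf2, at 270.2, 289 and 264 and 182, 182 and 193 T>C CPM, did not overlap and fell the least of the 6 (-0.56 ± 0.16). Esrrb (-0.54 ± 0.26), Zfp42 (-0.52 ± 0.24), Pou5f1 (-0.32 ± 0.35) and Tbx3 (-0.28 ± 0.33) did not pass. With T>C library sizes, which moved the median of all genes by 0.71, Sox2 (-0.60) and Klf5 (-1.06) remained lower, where 2.48% of all genes were, and Klf2 turned to 0.15. In all reads of this line the primitive endoderm markers summed to 189 to 223 CPM at 0 h, 195 to 227 at 8 h and 151 to 168 at 24 h. The neural markers summed to 70.9 to 89.0, 111 to 118 and 84.4 to 121 CPM in the same order. The part of these lists in the factors' changes in this line was not tested.

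In dKO cells the factors passed the test from 24 h on. None of the factors passed at 2 h (0.0% of all 5965 genes; none at an unadjusted p under 0.05 or by DESeq2), at 4 h (0.587%; 3 unadjusted, and Zfp42 lower by DESeq2) or at 8 h (1.56%; 2 unadjusted, none by DESeq2). The unadjusted counts at 4 and 8 h were all lower and stood beside 803 and 680 of all genes. Without 0 h replicate 1, 1 factor was lower at 8 h. At 24 h, 8 of 10, all but Nanog and Klf2, were lower, where 43.0% of all genes were, and at 48 h all 10 were, where 72.2% were. Their medians were -0.91 and -1.36, beside -0.80 and -1.29 for all genes. Esrrb fell most, from 11.03 and 16.1 T>C CPM at 0 h to 7.33 and 4.31 at 24 h and 2.76 and 3.90 at 48 h (-2.02 ± 0.28, edgeR adjusted p = 2.61e-09). Klf4 went from 59.6 and 79.6 to 37.9 and 38.6 and 16.6 and 24.0 (-1.78 ± 0.17), and Sox2 from 138 and 136 to 72.4 and 67.9 and 41.8 and 46.7 (-1.63 ± 0.14). For these 3 factors no library at 24 or 48 h overlapped those at 0 h.

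Nanog and Klf2 moved least. Nanog had 33.4 and 51.1 T>C CPM at 0 h, 37.3 and 38.2 at 24 h, within the earlier range, and 28.7 and 27.5 at 48 h (-0.59 ± 0.17). Klf2 had 11.3 and 9.03, 10.0 and 7.58 and 5.67 and 7.66 (-0.60 ± 0.26), and DESeq2 did not call it at 48 h. Between them and Esrrb lay Tfcp2l1 (-1.47 ± 0.21), Zfp42 (-1.46 ± 0.15), Klf5 (-1.25 ± 0.18), Tbx3 (-1.16 ± 0.18) and Pou5f1 (-0.94 ± 0.19). Tfcp2l1 had reached its background, with 0.172% to 0.203% of covered T converted at 48 h against 0.169% to 0.203% without label, which limits how far its T>C reads could fall. With T>C library sizes the median of all genes moved by 0.73 at 24 h and 1.18 at 48 h. No factor was then lower at 24 h and Nanog was higher (0.57), where 2.21% of all genes were. At 48 h Esrrb (-0.83), Klf4 (-0.59) and Sox2 (-0.44) were still lower and Nanog again higher (0.61), where 5.05% of all genes were lower and 2.51% higher, and Pou5f1 (0.25), Klf2 (0.58) and Tbx3 (0.03) turned direction without passing.

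The difference between lines in the auxin effect was tested with an interaction term over DPY30–mAID and dKO cells. It was read against 0.0% of all genes passing at 2 h and 0.319% at 8 h, and no factor passed at either time by edgeR, or at 2 h by DESeq2. At an unadjusted p under 0.05, 1 and 4 factors were higher, as were 70 and 830 of all 6901 genes. At 8 h Nanog came nearest, with a log2 difference of 1.61 ± 0.40 (edgeR adjusted p = 0.0505), and DESeq2 called Nanog, Klf4, Klf5 and Tbx3 as less lowered in dKO cells. The 8 h count rested on the DPY30–mAID libraries, with 6 factors called without 8 h replicate 1 and 1 without 8 h replicate 3. The shares of all genes called in these fits are not given, so these counts cannot be set against them. At 24 h, Sox2 (-1.40 ± 0.34, edgeR adjusted p = 0.0183) and Zfp42 (-1.49 ± 0.44, edgeR adjusted p = 0.0470) had a lower auxin effect in dKO cells, where 2.38% of all genes had. In DPY30–mAID cells neither had fallen at 24 h. The median difference over all genes was itself -0.68 at 24 h, beside -0.63 for the 10 factors, and 0.53 at 8 h, beside 0.73. With T>C library sizes the 24 h differences were -0.81 for Sox2 and -0.89 for Zfp42. DESeq2 called Sox2 alone, and the count was 0 without dKO 0 h replicate 2 or either dKO library at 24 h, and 1 without dKO 0 h replicate 1 or any single DPY30–mAID library at 0 or 24 h but 0 h replicate 3.

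Before any auxin the factors' total reads already differed between the libraries of these lines. The dKO libraries also covered fewer T positions per read (a mean of 11.2 against 18.7). They held more multimapped reads (32.0% to 34.3% against 21.8% to 25.9%). The line and these traits of the libraries cannot be told apart. In dKO cells 6 of 10 were lower, where 20.4% of all 11483 genes were, and 2 were higher, where 25.9% were, while the median of all genes was 0.14. Esrrb had 637, 604 and 645 CPM in DPY30–mAID and 271 and 261 in dKO cells (-1.22 ± 0.10). Klf2 had 372, 445 and 450.5 against 246 and 194 CPM (-0.92 ± 0.11). Neither gene's lines overlapped. Klf5 (-0.63 ± 0.10), Tfcp2l1 (-0.63 ± 0.10), Nanog (-0.50 ± 0.10) and Sox2 (-0.28 ± 0.08) were also lower, Pou5f1 (0.45 ± 0.09) and Zfp42 (0.52 ± 0.17) were higher, and Klf4 (0.21 ± 0.11) and Tbx3 (-0.03 ± 0.12) did not pass. The 2 higher calls became 1 without DPY30–mAID replicate 1 or dKO replicate 2, and by DESeq2. Neither held without multimapped reads, of which the libraries of these lines have different shares. Without them, an alternative chosen after seeing the data, Pou5f1 (-3.07), Zfp42 (-0.51) and Klf4 (-0.44) were lower in the dKO libraries. In all 8 of 10 were lower, where 20.1% of all genes were, none was higher and Sox2 no longer passed. For Pou5f1 this setting left means of 25.9 CPM in DPY30–mAID and 2.74 CPM in dKO SLAM-seq at 0 h. In DPY30–mAID Quant-seq at 0 h it left 0.884 CPM, and reads of Quant-seq covered a mean of 11.6 T positions. The line and the T positions per read cannot be told apart in this setting. The 6 RA target genes summed to 9.52 to 13.6 CPM in DPY30–mAID cells, where Cyp26a1, Hoxb1 and Rarb were at 0 in every library, and to 85.6 to 107 CPM in dKO cells, where none was. The 7 fibroblast markers summed to 1.84 to 2.59 CPM in DPY30–mAID and 20.3 to 25.9 CPM in dKO cells, with Col3a1, Dcn, Lum and Postn at 0 in both. The 8 neural markers summed to 108 to 129 and 43.0 to 48.1 CPM. Sums of primitive endoderm and trophoblast markers overlapped between the lines. The part of these lists in the factors' differences was not tested.

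Total reads follow the standing RNA of each factor. In DPY30–mAID cells none passed at 2 h, where 0.0305% of all genes did. At an unadjusted p under 0.05, 4 factors were lower, as were 437 of all 9848 genes, and DESeq2 called Nanog lower. At 8 h, 5 were lower, namely Nanog, Klf4, Zfp42, Esrrb and Klf5, where 7.61% of all genes were. At 24 h Klf4, Klf5, Esrrb and Tbx3 were lower, where 17.1% were, and Zfp42 was higher (0.40 ± 0.14), where 15.9% were; without 24 h replicate 3, 2 factors were higher. DESeq2 called Zfp42 neither at 8 h (adjusted p = 0.0977) nor at 24 h (adjusted p = 0.242), and called Sox2 in its place, lower at 8 h and higher at 24 h. The 8 h call of Zfp42 was also lost without multimapped reads, and the 24 h call without replicate 1 of either group. Klf4 went from 557, 491 and 520.3 CPM at 0 h to 343, 394 and 475 at 8 h and 230.4, 207 and 169.7 at 24 h (-1.37 ± 0.12), with no overlap between the groups. Klf5 went from 1548, 1422 and 1427 to 764, 947 and 1076 and 688, 571 and 623 CPM (-1.22 ± 0.10), likewise without overlap. Esrrb went from 637, 604 and 645 to 384, 337 and 346 CPM (-0.82 ± 0.10). Between 8 and 24 h the set split, with Klf4 (-0.997), Esrrb (-0.42), Klf2 (-0.36), Klf5 (-0.57), Tfcp2l1 (-0.26) and Tbx3 (-0.33) lower, where 17.3% of all genes were, and Nanog (0.64), Sox2 (0.47) and Zfp42 (1.03) higher, where 15.8% were.

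In RBBP5–FKBP cells total reads of Esrrb, Klf2 and Tbx3 rose, while in T>C reads no factor did. None passed at 2 h (0.0% of all genes; none at an unadjusted p under 0.05 or by DESeq2). At 8 h Tbx3 (0.83 ± 0.15) and Esrrb (0.49 ± 0.12) were higher, where 4.13% of all genes were, and Klf5 (-0.53 ± 0.11) was lower, where 5.12% were. The higher count was 1 without 8 h replicate 1 and 4 without 0 h replicate 1. At 24 h Esrrb, Klf2 and Tbx3 were higher, where 2.99% were, and Klf5 lower, where 4.49% were. Klf2 had 703, 683 and 750.0 CPM at 0 h and 1108, 1063 and 1094 at 24 h (0.61 ± 0.11), with no overlap, while its T>C reads fell. Esrrb had 380.1, 361 and 356 and 594, 552 and 535 CPM (0.62 ± 0.12), opposite to DPY30–mAID cells, and a test between these lines was not made. Klf5 had 1278, 1149 and 1294 and 891, 795 and 759.7 CPM (-0.60 ± 0.11). No factor differed between 24 and 8 h by edgeR, where 0.155% of all genes did, or by DESeq2, and without 8 h replicate 3 it was 1. At an unadjusted p under 0.05, 3 factors were lower and 1 higher, as were 516 and 554 of all 9676 genes. Zfp42 spread widely between replicates of this line, with 189, 452 and 451 CPM at 0 h and 285, 164 and 501 at 8 h, and none of its changes passed.

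In dKO cells total reads of the factors stayed close to their 0 h values. None passed at 2, 4 or 8 h by edgeR, where 0.0%, 0.0% and 0.772% of all genes did. At an unadjusted p under 0.05, 2 factors were higher at 2 h, 1 lower at 4 h and 2 lower at 8 h. The same held for 619, 395 and 672 of all 11394 genes. DESeq2 called Klf4 higher at 2 h and none at 4 or 8 h, and 1 factor was higher at 2 h without 0 h replicate 2. At 24 h Pou5f1 (-0.33 ± 0.05) and Esrrb (-0.24 ± 0.07) were lower, where 6.44% of all genes were, with the others between -0.05 (Klf5) and 0.18 (Nanog), and leaving out any one of the 4 libraries compared left 1 of the 2. Without 0 h replicate 2, 1 factor was higher. At 48 h Klf4 (-0.28 ± 0.07) was lower, where 7.84% were, and Nanog (0.32 ± 0.08) and Tbx3 (0.21 ± 0.07) higher, where 6.72% were. The lower call was lost without 0 h replicate 2, and the higher ones went to 0 without 48 h replicate 2 and to 1 without 0 h replicate 1. DESeq2 called Klf4 and Nanog at 48 h but not Tbx3, and no factor was higher there without multimapped reads. Esrrb at 48 h, with the largest fall in T>C reads, had 271 and 261 CPM at 0 h and 250.1 and 213 at 48 h (-0.20 ± 0.07), which did not pass.

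**Figure D3:**
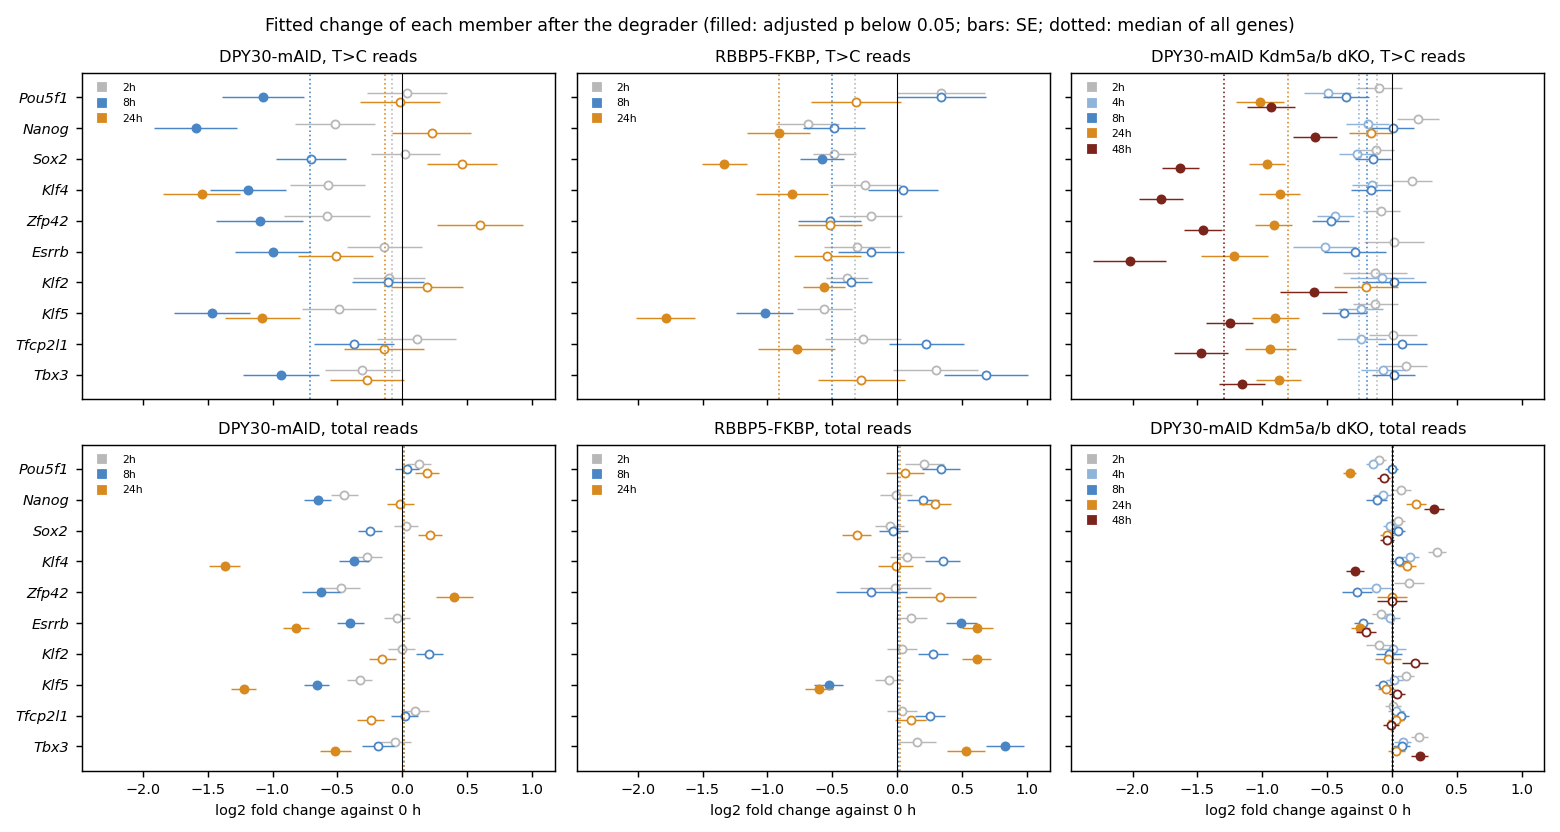
Log2 fold changes against 0 h with their standard errors for the 10 factors, in T>C reads and in total reads, for each line and time, with filled points for those that passed edgeR's test and dotted lines for the median of all genes at each time. T>C reads lie below 0 for all 10 factors at 48 h in dKO cells, while their total reads stay between -0.28 (Klf4) and 0.32 (Nanog).

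Other genes of the same state and pathway were counted from lists chosen by name. Of 9 other naive regulators (such as Nr0b1, Sall4 and Nr5a2), 3 of 8 tested fell in T>C reads at 8 h in DPY30–mAID cells, 5 of 7 at 24 h in RBBP5–FKBP and 7 of 7 at 48 h in dKO cells, with medians of -0.97, -1.16 and -1.35. In DPY30–mAID cells at 8 h these were Sall4 (-1.40), a zinc finger partner of OCT4, Nr5a2 (-0.97), an orphan nuclear receptor, and Zfp281 (-0.95). At 24 h Gbx2, a homeobox target of STAT3, was lower (-2.01) and Nr5a2 higher (1.10). Of 11 ES cell genes (such as Utf1, Dppa5a and Tdgf1), 5 of 10, 7 of 10 and 10 of 10 fell in the same comparisons, with medians of -0.94, -1.26 and -1.61. Of 11 genes of LIF–STAT3 signalling, which feeds Klf4, Tfcp2l1 and Gbx2, 1 of 6, 3 of 6 and 6 of 6 fell, with medians of -0.60, -0.94 and -1.30. Only 10 of these 11 were found among the counted genes. Stat3 itself had no reads in any library of the groups compared, so it was not measured. The medians of all genes were -0.71, -0.91 and -1.29 and the shares of all genes lower 16.1%, 25.9% and 72.2%.

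During differentiation with RA in DMSO, 9 of the 10 factors fell and Tbx3 did not. At 8 h and at day 1, 8 were lower, where 9.4% and 23.9% of all 11415 genes were, with Pou5f1 and Tbx3 the exceptions. At days 2, 4 and 6, 9 were lower, where 22.6%, 26.5% and 25.9% were, and Tbx3 was higher by 0.24, 0.31 and 0.29 on the log2 scale, where 25.4%, 27.8% and 29.4% were. The rises of Tbx3 were lost without 0 h replicate 2 at all 3 days, and at day 2 without either of that day's libraries. They were also lost at days 2 and 6 with no count filter, and at day 6 without multimapped reads. All these comparisons share the 2 libraries at 0 h, and the day 6 group is 1 library, whose spread is taken to be that of the other groups.

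The courses of the factors differed. Klf2 fell from 752 and 790.3 CPM at 0 h to 293 and 287 at 8 h, 111 and 87.2 at day 1 and 53.9 at day 6 (-2.96 ± 0.12 at day 1). Esrrb went from 705 and 731 CPM to 359.6 and 347 at 8 h, 145 and 169.6 at day 1, 165 and 159 at day 4 and 50.6 at day 6 (-2.19 ± 0.11 at day 1). Tfcp2l1 went from 446 and 416 CPM to 245 and 273 at 8 h and 72.4 and 74.6 at day 1 (-2.55 ± 0.13), and stood at 118 on day 6. Klf4 had 481 and 456 CPM at 0 h, 191 and 221 at 8 h, 99.9 and 119.7 at day 2 and 176 and 179.8 at day 4. No library of these 4 genes after 0 h overlapped the start. Klf5 fell to 332 and 286 CPM at day 1 from 1127 and 1024 at 0 h, and stood at 752 and 804 at day 4, above its day 1 libraries and below its start. Of the core factors, Pou5f1 had 1935 and 1702 CPM at 0 h, 2051 and 1728 at day 1, an overlapping range, and 796 and 864 at day 2 (-1.13 ± 0.11). Nearly all of these reads were multimapped, and without them Pou5f1 could not be tested in Quant-seq. Nanog had 717 and 737 CPM at 0 h, 489 and 590.0 at day 1, 265 and 259 at day 4 and 66.9 at day 6, and Sox2 742 and 655, 480.2 and 491, 356 and 369 and 59.8. For both the step from day 4 to day 6 was the largest of the course on the log2 scale, and the last point is 1 library. Zfp42 fell from 373 and 397 CPM to 161 and 137 at day 1 and 38.5 at day 6. Tbx3, which is also expressed in extraembryonic endoderm, kept to 464 and 420.4 CPM at 0 h, 423 and 417 at day 1 and 545 and 548 at day 4.

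**Figure D4:**
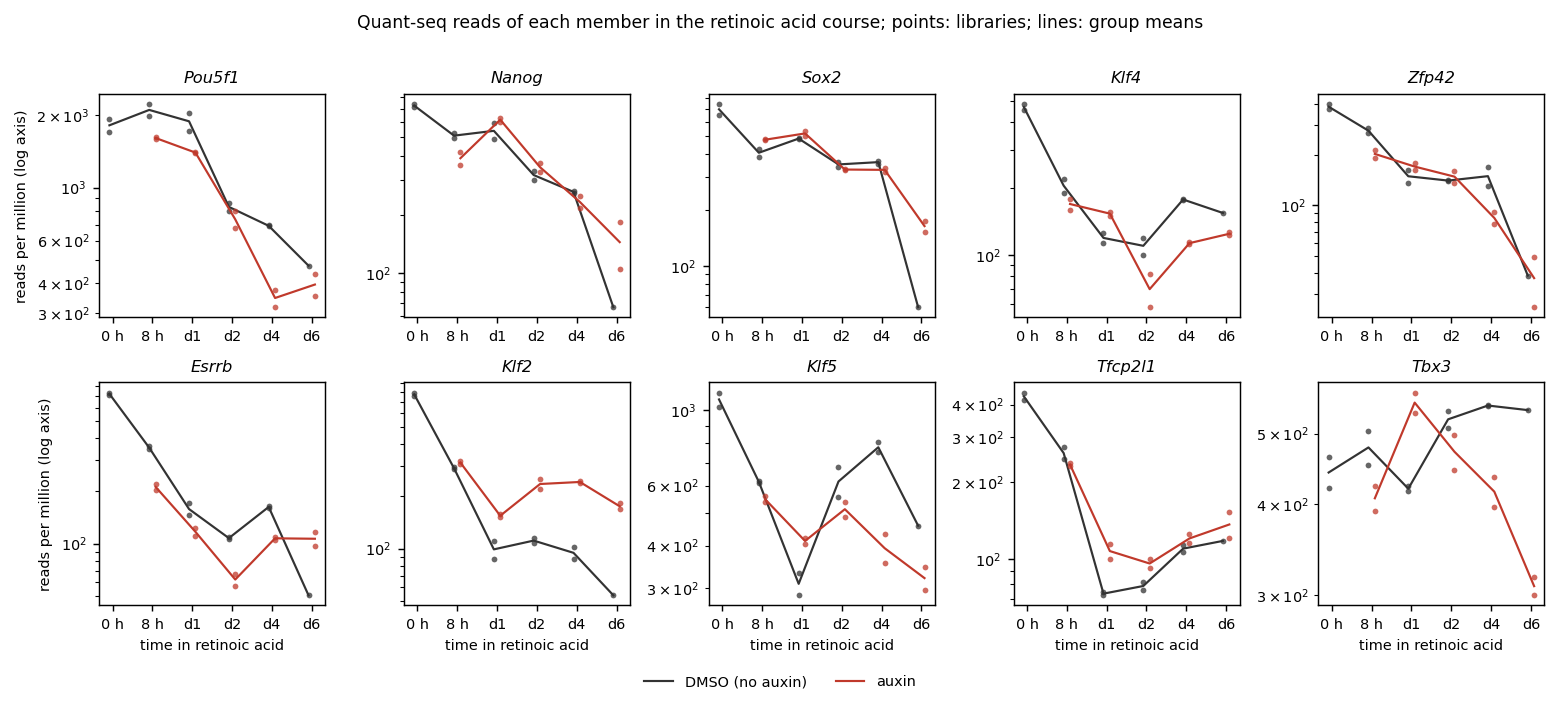
Levels of the 10 factors in CPM (log axis) over the RA course (times evenly spaced, not to scale), with a point for each library, for DMSO and auxin, and lines through the group means; the DMSO day 6 group is 1 library. Klf2 lies higher with auxin from day 1 on and Esrrb lower until day 4.

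In the same DMSO libraries the 6 RA target genes were higher at 8 h and days 1, 2, 4 and 6, where 8.94%, 27.9%, 25.4%, 27.8% and 29.4% of all genes were. One of them, Cyp26a1, an enzyme that degrades RA, was at 0 in both libraries of 0 h. All 12 primitive endoderm markers were higher at days 2, 4 and 6, with a summed level of 87.2 to 89.7 CPM at 0 h, 753 to 757 at day 2, 3658 to 3701 at day 4 and 8309 in the 1 library of day 6. Neural markers went both ways, with sums of 119 to 129 CPM at 0 h, 50.2 to 78.3 at 8 h, 69.8 to 80.7 at day 1, 114 to 125 at day 2, 84.8 to 90.8 at day 4 and 35.5 at day 6, with Neurog1 at 0 in the first and last of these groups, while trophoblast markers summed to 3.41 and 11.1 CPM at 0 h and 198 at day 6. Fibroblast markers were at 38.0 to 49.2 CPM at 0 h and 5.34 to 7.22 at day 1, with Col1a2, Col3a1, Dcn, Lum and Postn at 0 in both groups, and were at 29.5 to 38.5 CPM at day 4 and 31.4 at day 6. The part of these cell types in the factors' courses was not tested. Of the other naive regulators 7 of 9 were lower by day 1, where 23.9% of all genes were, with a median of -1.76 against 0.10 for all genes. Sums over other ES cell lists did not share this fall by day 1. The ES cell markers, some of them factors, summed to 6893 to 7223 CPM at 0 h, 7901 to 7982 at day 1 and 1483 at day 6. The ES cell genes summed to 5482 to 5567, 5332 to 5599 and 1423 CPM in the same order.

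With auxin during RA the factors did not move as one, and at days 2 and 4 Klf2 was higher while Esrrb was lower. At 8 h Esrrb was the 1 factor of 10 lower with auxin, at 219.9 and 202 CPM against 359.6 and 347 with DMSO (-0.74 ± 0.11), where 0.736% of all genes were. At an unadjusted p under 0.05, 6 factors were lower there, as were 756 of all 11415 genes. With no count filter Pou5f1 and Zfp42 passed as well, 3 of 10 where 0.799% of all genes were. Esrrb was lower at day 1 (-0.43 ± 0.13), day 2 (-0.78 ± 0.14) and day 4, with 109 and 105 CPM against 165 and 159 (-0.60 ± 0.12). The day 1 call was lost by DESeq2 (adjusted p = 0.111), with RLE factors, with no count filter and without auxin replicate 1 or 2 or DMSO replicate 2. At day 6 the order had turned, with 96.3 and 117 CPM in auxin and 50.6 in the 1 DMSO library (1.07 ± 0.17). Klf2 was higher with auxin from day 1 on. It had 251 and 219.8 CPM against 108 and 115 at day 2 (1.08 ± 0.12), 240.1 and 244 against 102 and 87.7 at day 4 (1.35 ± 0.12) and 168 and 182 against 53.9 at day 6 (1.70 ± 0.16). At each of these days no auxin library overlapped DMSO.

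At day 1, Klf2, Klf5, Tfcp2l1 and Tbx3 were higher with auxin, 4 of 10 where 3.52% of all genes were, and Pou5f1 and Esrrb lower, 2 of 10 where 3.49% were. These counts did not hold with 1 library fewer: without any one of the 4 libraries of that day 0 to 2 were higher and 0 or 1 lower. At day 2, Klf2 alone was higher, where 5.32% were, and Klf4 (-0.65 ± 0.15) and Esrrb lower, where 8.09% were, and without replicate 2 of either arm 1 was lower. At day 4, 6 of 10 were lower, where 11.5% were, and Klf2 higher, where 7.04% were. Pou5f1 had 316 and 375 CPM with auxin and 688 and 696 with DMSO (-1.0003 ± 0.12), and Klf5 354 and 431 against 752 and 804 (-0.99 ± 0.11). The other lower factors were Zfp42 (-0.82 ± 0.17), Klf4 (-0.66 ± 0.13), Esrrb and Tbx3 (-0.39 ± 0.10), and the arms did not overlap in any of the 6. At day 6 Nanog (1.13 ± 0.22), Sox2 (1.46 ± 0.15), Esrrb and Klf2 were higher, where 6.62% were, and Klf5 (-0.51 ± 0.14) and Tbx3 (-0.80 ± 0.12) lower, where 12.2% were. Sox2 had 175 and 153 CPM with auxin against 59.8, and Nanog 184 and 105 against 66.9.

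Markers of primitive endoderm moved with the arms as well. Their sum was 471 to 531 CPM with auxin at day 2, 1189 to 1205 at day 4 and 1359 to 1456 at day 6, below DMSO at each of these days, and 7, 12 and 12 of 12 were lower, where 8.09%, 11.5% and 12.2% of all genes were, with medians of -0.86, -1.62 and -2.38 against 0.01, -0.03 and -0.03 for all genes. None of the 12 was at 0 in all libraries of an arm on these days. Their part in the differences of the 10 factors was not tested. RA target genes summed to 194 to 228 CPM with auxin and 334 to 342 with DMSO at 8 h, and to 906 to 962 and 1598 to 1709 at day 1, where 1 of 6 was lower and 1 higher, and 3.49% and 3.52% of all genes were. By day 4 the order of these sums had turned, with 949 to 1001 and 744 to 746 CPM. At day 6 fibroblast markers summed to 59.4 to 59.8 CPM with auxin and 31.4 in the 1 DMSO library, and neural markers to 55.9 to 87.7 and 35.5. The part of these lists in the differences of the factors was not tested either.

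Lists of other genes of the ES cell state did not share 1 direction. Of the other naive regulators, 5 of 9 were higher with auxin and 0 lower at day 1, where 3.52% and 3.49% of all genes were, and 2 higher and 1 lower at day 4, where 7.04% and 11.5% were. One of these 2 higher calls, Dppa3, a maternal-effect gene of naive cells and germ cells, was against DMSO libraries that were all at 0. The ES cell genes summed to 3189 to 3248 CPM with auxin and 5332 to 5599 with DMSO at day 1, with 2 of 10 lower and 3 higher, and to 1194 to 1230.0 and 2037 to 2088 at day 4, with 3 lower and 3 higher.

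Over the 11 Quant-seq groups, the genes outside the set whose mean log2 CPM followed the mean standardised profile of the 10 factors most closely were Dhtkd1 (Pearson r = 0.973), Socs2 (0.970), Zfp13 (0.967), Msh6 (0.960) and Rrp1b (0.958), among 11415 genes. Dhtkd1 (2.02 to 16.1 CPM over all libraries) and Zfp13 (1.11 to 11.96) had few reads, and Dhtkd1 had 3.56 and 9.62 CPM in the replicates of DMSO day 1, so the order of these genes is uncertain. Socs2 encodes an inhibitor of cytokine signalling and Msh6 a mismatch repair protein. Of the factors themselves Zfp42 (0.939) and Esrrb (0.904) lay closest to their own mean profile and Tbx3 (0.185) farthest. The groups share libraries' depth and course, and these r values are descriptions over 11 points.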

How the data were processed

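SLAM-seq (36 libraries) and Quant-seq (22) counts were deposited by the authors as raw read counts per 3′ UTR interval, made with SlamDunk per the file headers on GRCm38, with reads carrying T>C conversions, multimapped reads, and T positions covered and converted counted beside all reads. For Quant-seq the methods name another aligner and counter than the headers do. Reads carry no molecular identifiers, and T>C reads here include those with a single conversion, whereas the study asked for at least 2. The counts of a gene's intervals were summed, and all 20177 identifiers matched a symbol. Genes whose mean reached 10 reads in any 1 group were tested with edgeR 4.0.16 (R 4.3.3; TMM, quasi-likelihood test), for T>C reads with the library sizes of total reads, in 1 fit per line and read type, 1 over both DPY30–mAID lines and 1 over Quant-seq. A gene passed at a Benjamini-Hochberg adjusted p below 0.05 over all genes tested. The study used DESeq2, run here (1.42.0) as an alternative. Other alternatives were RLE factors, no count filter, T>C library sizes, a log2 fold change beyond 1, fits of 2 groups, no multimapped reads, a replicate block and leaving out each library. The 10 factors and all lists were chosen with earlier results of these data known. The rule was to give all 10 factors in every comparison, with companion genes needed to explain a list's count and the 5 genes most alike in Quant-seq, and some factors are given in a comparison by count or range alone. Of the scripts, only the edgeR step was run on simulated counts. These had known fold changes for some of the comparisons and the same spread for all genes. CPM values use TMM-scaled library sizes. Precision is limited by 2 or 3 libraries per group and, for T>C reads, by low counts.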

Additional observations from a re-analysis of the deposited data

Results flagged for a closer look

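In T>C reads the auxin effect at 24 h differed between dKO and DPY30–mAID cells, by the interaction term, for Sox2 (-1.40 on the log2 scale) and Zfp42 (-1.49). Both had fallen in dKO cells, while in DPY30–mAID cells every library at 24 h lay above those at 0 h. The median of the same difference was -0.68 over all genes and -0.63 over the 10 factors. Both calls were lost when dKO 0 h replicate 2 or either dKO library at 24 h was left out. DESeq2 called Sox2 alone, and with T>C library sizes the values were -0.81 and -0.89, still past the threshold. Most of the reads of Zfp42 are multimapped.

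In other cases every library of one line lay above its 0 h libraries and every library of another line below, or the reverse, and the difference between the lines was not tested. The values that follow are differences between the log2 ratios of group means to 0 h, the first line minus the second. In T>C reads Sox2 at 24 h was higher in DPY30–mAID and lower in RBBP5–FKBP cells (1.79). In total reads DPY30–mAID and RBBP5–FKBP cells parted at 8 h for Klf4 (-0.72) and Esrrb (-0.89), and at 24 h for Esrrb (-1.44), Tbx3 (-1.05) and Sox2 (0.52). Esrrb also parted between RBBP5–FKBP and dKO cells, at 8 h (0.71) and 24 h (0.86), with RBBP5–FKBP higher. Between DPY30–mAID and dKO cells, total reads parted at 2 h for Klf4 (-0.62) and Klf5 (-0.43), at 8 h for Sox2 (-0.30) and at 24 h for Klf4 (-1.49) and Sox2 (0.25).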

How the results depend on the processing

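Counts of the 10 factors called are compared with those of the report. With T>C library sizes, T>C counts were 2 lower and 1 higher at 8 h, 2 higher at 24 h and 1 lower at 24 against 8 h in DPY30–mAID cells, 0 lower at 8 h, 2 at 24 h and 0 at 24 against 8 h in RBBP5–FKBP, and in dKO cells 0 lower and 1 higher at 24 h and 3 lower and 1 higher at 48 h. The auxin effect then differed for 1 factor, less lowered in dKO cells, at 8 h, and at 24 h for 1 with a higher and 2 with a lower effect in dKO cells. Directions turned in that setting for Klf2 in DPY30–mAID at 8 h (0.57) and RBBP5–FKBP at 24 h (0.15), for Nanog in dKO at 24 h (0.57), and for Pou5f1 (0.25), Nanog (0.61), Klf2 (0.58) and Tbx3 (0.0261) in dKO at 48 h. Without multimapped reads, chosen after seeing the data for the dKO baseline, 0 factors were higher there and Pou5f1 (-3.07), Klf4 (-0.44) and Zfp42 (-0.51) turned to lower. The other settings reversed no called value; for T>C reads, whose multimapped part is not counted separately, this setting was not run. Why the calls moved was not tested.

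DESeq2 called 3 lower in T>C reads at 2 h and 4 at 24 against 8 h in RBBP5–FKBP and 1 lower at 4 h in dKO cells. In total reads it called 1 lower at 2 h in DPY30–mAID, and 1 higher at 2 h and 1 at 48 h in dKO cells. It also called 1 higher at the dKO baseline, 4 less lowered in dKO cells in the 8 h auxin effect and 1 with a lower effect in dKO cells at 24 h, and 1 lower with auxin at RA day 1. With RLE factors 1 was lower with auxin at day 1 and 1 differed in the 8 h auxin effect. Asking also for a log2 fold change beyond 1 left 2 lower in T>C reads at 24 h in dKO, 2 at 24 h, 1 at 8 h and 0 at 24 against 8 h in RBBP5–FKBP, and with auxin during RA 0 lower at 8 h, 0 lower and 0 higher at day 1, 0 lower at days 2 and 6, and 1 lower at day 4. Fits of 2 groups gave 2 lower at 8 h, 2 higher at 24 h and 2 higher at 24 against 8 h in DPY30–mAID T>C reads, and 1 lower at 8 h and 0 at 24 against 8 h in RBBP5–FKBP. With no count filter, in total reads 2 factors were lower at 2 h in DPY30–mAID, 1 was higher at 2 h and 1 lower at 8 h in dKO, and 1 was higher at 24 against 8 h in RBBP5–FKBP. In that setting 1 differed in the 8 h auxin effect on T>C reads, and in Quant-seq 3 were lower with auxin at RA 8 h and 1 at day 1, and 0 were higher in DMSO at days 2 and 6. Without multimapped reads, in total reads of dKO cells 1 was lower at 24 h and 2 lower and 0 higher at 48 h, and in Quant-seq 1 was lower with auxin at day 1 and 0 were higher in DMSO at day 6.

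With a replicate block 1 factor was lower in T>C reads at 8 h and 1 higher in total reads at 2 h in dKO cells, and 1 differed in the 8 h auxin effect. The block moved no other count by over 1.5 times. Same-numbered libraries did not deviate together (r from -0.19 to 0.34 over pairs), so the numbers were not taken to pair them.

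With each library left out in turn (a lone remaining library is assumed to vary like the other groups), counts ranged as follows where they moved by over 1.5 times. In the dKO baseline they were 1 to 2 higher at 0 h. In the auxin effect between lines they were 0 to 6 higher at 8 h, 0 to 2 lower at 24 h. In Quant-seq they were 0 to 1 higher for DMSO day 2, 0 to 1 higher for DMSO day 4, 0 to 1 higher for DMSO day 6, 0 to 1 lower for auxin day 1, 0 to 2 higher for auxin day 1, 1 to 3 lower for auxin day 2. In DPY30–mAID T>C reads they were 4 to 8 lower at 8 h, 1 lower at 24 h. In dKO T>C reads they were 0 to 1 lower at 8 h. In RBBP5–FKBP T>C reads they were 1 to 2 lower at 8 h, 0 to 1 higher at 8 h, 0 to 2 lower at 24 h against 8 h. In DPY30–mAID total reads they were 1 to 2 higher at 24 h. In dKO total reads they were 0 to 1 higher at 2 h, 1 lower at 24 h, 0 to 1 higher at 24 h, 0 to 1 lower at 48 h, 0 to 2 higher at 48 h. In RBBP5–FKBP total reads they were 1 to 4 higher at 8 h, 0 to 1 higher at 24 h against 8 h. Of 280 such counts 57 moved.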
